A study of Mus musculus with 12 samples.

Results

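The ABC, Slco and Slc22 families hold most of the membrane carriers that move bile salts, phospholipid, sterols, drugs and organic ions into and out of liver cells. Their members were taken from the array by symbol, as every non-control probe whose gene symbol begins Abca to Abcg, Slco or Slc22a followed by a number. This gave 143 of 41174 probes and 86 of 28783 gene names. Of the 86 genes, 63 entered the tests because a probe stood well above background on 4 or more arrays, and 23 did not. The filter left out genes of low signal, so the counts below describe 63 genes and not the whole families.

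All 12 arrays held liver RNA from male C57BL/6 mice, 3-months-old, that carried a liver knockout of the glucocorticoid receptor (GR), so the knockout was common to the controls as well. In 4 samples the mice received PBS, in 4 AAV-GFP, an adeno-associated virus carrying green fluorescent protein, and in 4 AAV-hGRB, the virus carrying human GR beta, a splice isoform of the receptor. AAV-hGRB against AAV-GFP addresses the question in the title of the series, which is what human GR beta does to transcription without GR alpha. AAV-GFP against PBS gives the difference that goes with a vector of unrelated cargo, and AAV-hGRB against PBS is a further control. The sources used here do not give what drives the knockout, the vector dose or the time of sampling, and no group had an intact receptor. The labels do not say that samples came from separate animals, so each p reflects only how far these samples spread, which may be technical. The comparisons share arrays: each group enters 2 of the 3, so their values are not independent of each other.

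Bile forms when hepatocytes take up bile salts and other organic anions from blood at the sinusoidal membrane and export them across the canalicular membrane. Slco and Slc22 carriers act mainly in uptake, and ABC proteins use ATP to pump substrates out of the cell or into organelles. Several of these genes are textbook targets of nuclear receptors in liver.

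Levels are given as log2 signal intensity minus the 75th percentile of the same array, and differences are on the same log2 scale, so that 1 unit is a 2-fold difference. Levels of different genes come from different probes and are not set against each other. Between 54.9% and 66.3% of probes were well above background on an array, and AAV-GFP replicate 3 had the lowest share and the lowest median intensity, 30.3 against 42.3 or more on the others. Nr3c1, the gene of the receptor, lay between 0.05 and 0.58 on all arrays, but no probe is stated to lie in the deleted part, so it does not check the knockout. All 5 hepatocyte markers on the array were well above background on every array. Macrophage markers had higher means with AAV-hGRB than with AAV-GFP in 7 of 7 genes (median difference 0.28) and T and NK cell markers in 5 of 5 tested (0.70), whereas hepatocyte markers were lower in 5 of 5 (-0.18). Array means of the macrophage markers ran from 1.53 to 2.99 in PBS, 2.34 to 3.14 in AAV-GFP and 2.38 to 3.53 in AAV-hGRB, and those of the T and NK cell markers from -2.11 to -0.61, -1.49 to -0.90 and -1.13 to 0.13. Stellate cell markers were higher in 4 of 4 (0.28) and endothelial markers in 4 of 5 (0.32), while erythroid markers were lower in 2 of 2 (-0.60) and cholangiocyte markers in 3 of 4 (-0.57). Between the vectors 38.1% of all gene names were higher with AAV-hGRB. Macrophage markers were also higher in 7 of 7 genes in AAV-GFP against PBS (median 0.20) and in AAV-hGRB against PBS (0.57). Neutrophil markers were lower in AAV-GFP than in PBS in 3 of 3 (median -1.26), with unadjusted p-values of 0.003 for S100a8, 0.0072 for S100a9 and 0.007 for Mpo in limma, and higher with AAV-hGRB than with AAV-GFP in 2 of 3 (0.86). None of these markers passed the adjusted test, and their part in the values below was not tested. In a whole-liver sample, fewer cells of a type and less RNA per cell cannot be told apart.

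No transporter gene passed the test in any comparison. With limma and Benjamini-Hochberg adjustment over all 26591 tested probes, 0 of 63 members had an adjusted p under 0.05, whether AAV-hGRB was set against AAV-GFP, AAV-GFP against PBS, or AAV-hGRB against PBS, beside 0 of 18884 gene names (0% called) in each. The lowest adjusted p of a member was 0.998, 0.999 and 0.626 in that order. The median standard error of a member's log2 difference was 0.27, with a range from 0.17 to 1.12. Small differences were not resolved, and larger ones did not pass either. Between AAV-hGRB and PBS, Slc22a26 was 3.27-fold lower (adjusted p = 0.626, limma), Slc22a29 2.78-fold (0.655) and Slc22a6 2.66-fold (0.719). What follows gives the members' values as measured, and unadjusted p-values only rank them.

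In AAV-hGRB against AAV-GFP, 1 of 63 members had an unadjusted p under 0.05, beside 3.21% of all gene names. This was Abca9, which was higher, a direction that 1.47% of all gene names took at that p. These counts use the brightest tested probe of each gene. For Abcc1 that probe gave 0.25, but dimmer tested probes gave 0.83 and 0.69 (unadjusted p = 0.0016 and 0.0467, limma). In AAV-hGRB against PBS the dimmer probes of Abcc1 gave 0.72 and 0.68 (unadjusted p = 0.0043 and 0.0493, limma), and the brightest 0.29. In AAV-GFP against PBS 3 members had such a p, beside 1.74%: Slco1b2 was higher (0.842% of gene names), and Abcc9 and Slc22a26 were lower (0.895%). In AAV-hGRB against PBS there were 4, beside 5.63%, and all of them were lower, a direction with 3.37% of all gene names: Slc22a26, Slc22a29, Slc22a6 and Slco1a5. Read against these backgrounds, counts of 1, 3 and 4 among 63 genes are no result about the families. A difference over 1 log2 unit was found for 0 members between the vectors, for 1 between AAV-GFP and PBS and for 4 between AAV-hGRB and PBS. The 4 were Slc22a26, Slc22a29, Slc22a6 and Abca14, which was well above background on 5 of 12 arrays. The share of all gene names past that size is not given here, so these counts are no result about the families either.

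By sign, 17 of 63 members were higher with AAV-hGRB than with AAV-GFP, beside 38.1% of all gene names, and 46 (73.0%) were lower, beside 61.9%; the members' median difference was -0.13 beside -0.09 over all genes. Against PBS, 22 of 63 were higher with AAV-hGRB, beside 39.8% of all, and 41 (65.1%) were lower, beside 60.2%, with medians of -0.10 and -0.08. In AAV-GFP against PBS the split was 35 higher, beside 52.2% of all, and 28 lower, with medians of 0.03 and 0.02. Normexp background correction moved the all-gene median of AAV-hGRB against AAV-GFP from -0.09 to 0.02 and the share of genes lower from 61.9% to 47.4%, while 42 of 63 members were lower there. Signs are therefore read beside all genes.

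**Figure D1:**
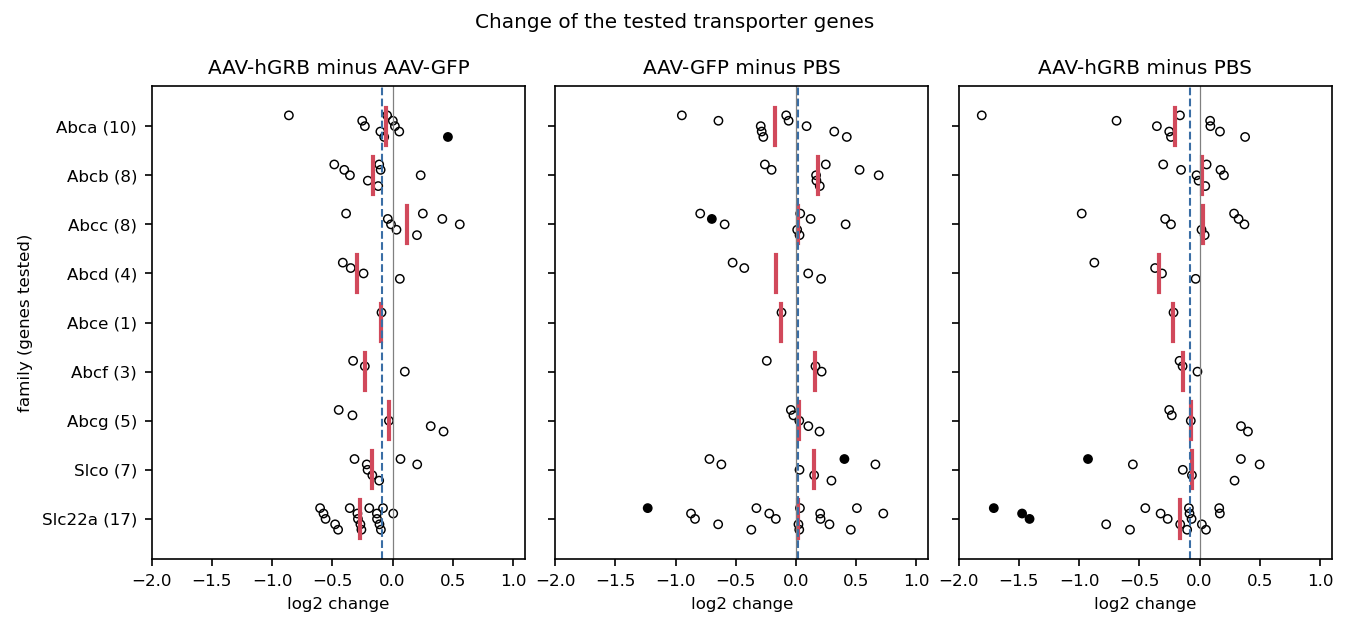
Log2 difference of each of the 63 tested genes (circles) by family, for the 3 comparisons, with the family median as a red bar, the median of all 18884 gene names as a dashed line and filled circles for an unadjusted p under 0.05. The Slc22a genes lie almost wholly left of 0 in AAV-hGRB minus AAV-GFP, with a median of -0.27, and spread to both sides in AAV-GFP minus PBS.

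Canalicular exporters were read by 7 tested genes, and none of them passed the test. In AAV-hGRB against AAV-GFP 6 of the 7 had a lower mean, beside 61.9% of all gene names, with a median difference of -0.33. In AAV-GFP against PBS 6 of the 7 had a higher mean, beside 52.2% of all gene names, with a median of 0.17. Against PBS the split with AAV-hGRB was 4 higher, beside 39.8% of all gene names, and 3 lower. Quantile scaling brought the first of these medians to -0.09 with 6 of 7 lower.

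Abcb11, the bile salt export pump, had levels of 6.34, 7.78, 7.61 and 7.86 in PBS, 8.10, 7.73, 8.53 and 7.96 in AAV-GFP and 7.89, 7.84, 7.23 and 7.42 in AAV-hGRB. PBS replicate 1 lay below every other array, and the groups overlapped in all comparisons. The difference between AAV-GFP and PBS was 0.69 ± 0.33 (SE), with an adjusted p of 0.999 in limma, and it was 0.33 without PBS replicate 1. Abcb4, which moves phosphatidylcholine into bile, stood at 6.63, 6.93, 7.48 and 6.74 in PBS, at 7.29, 7.22, 7.97 and 7.41 in AAV-GFP and at 7.34, 7.30, 6.82 and 7.02 in AAV-hGRB. Its AAV-GFP arrays lay above 3 of the 4 PBS arrays, and the difference of 0.53 ± 0.24 had an adjusted p of 0.999. On AAV-GFP replicate 3 both genes reached their highest level. Between AAV-hGRB and AAV-GFP the differences were -0.48 ± 0.33 for Abcb11 and -0.35 ± 0.24 for Abcb4, both with an adjusted p of 0.998 in limma. With quantile scaling they were -0.19 and -0.09, and without AAV-GFP replicate 3 that of Abcb4 was -0.19. A second probe of Abcb4, much dimmer, gave 0.29 in that comparison, the opposite sign, and 0.56 in AAV-GFP against PBS. In AAV-hGRB against PBS the second probe gave 0.86 (unadjusted p = 0.019, limma), and the brighter probe 0.17.

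Abcc2, a pump for conjugated bilirubin and other conjugates, was the only one of these 7 with a higher mean in AAV-hGRB than in both controls. Its levels were 3.99, 3.69, 3.82 and 3.79 in PBS, 4.11, 4.07, 3.85 and 3.75 in AAV-GFP and 4.13, 3.90, 4.22 and 4.34 in AAV-hGRB. The AAV-hGRB arrays overlapped with PBS through replicate 2 alone, and the difference from PBS was 0.32 ± 0.17 (adjusted p = 0.885, limma), or 0.14 with normexp correction. Abcg2, an exporter of urate, sulphated conjugates and drugs, differed by -0.45 ± 0.26 between AAV-hGRB and AAV-GFP. Its AAV-hGRB replicate 1, at 3.66, was below the other 11 arrays, which lay between 4.24 and 5.11, and without that array the difference was -0.23.

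Abcb1b, 1 of the rodent multidrug exporters, differed by -0.12, 0.17 and 0.05. Abcb1a, the other one, was well above background on 1 of 12 arrays, a PBS array, and was not tested.

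**Figure D2:**
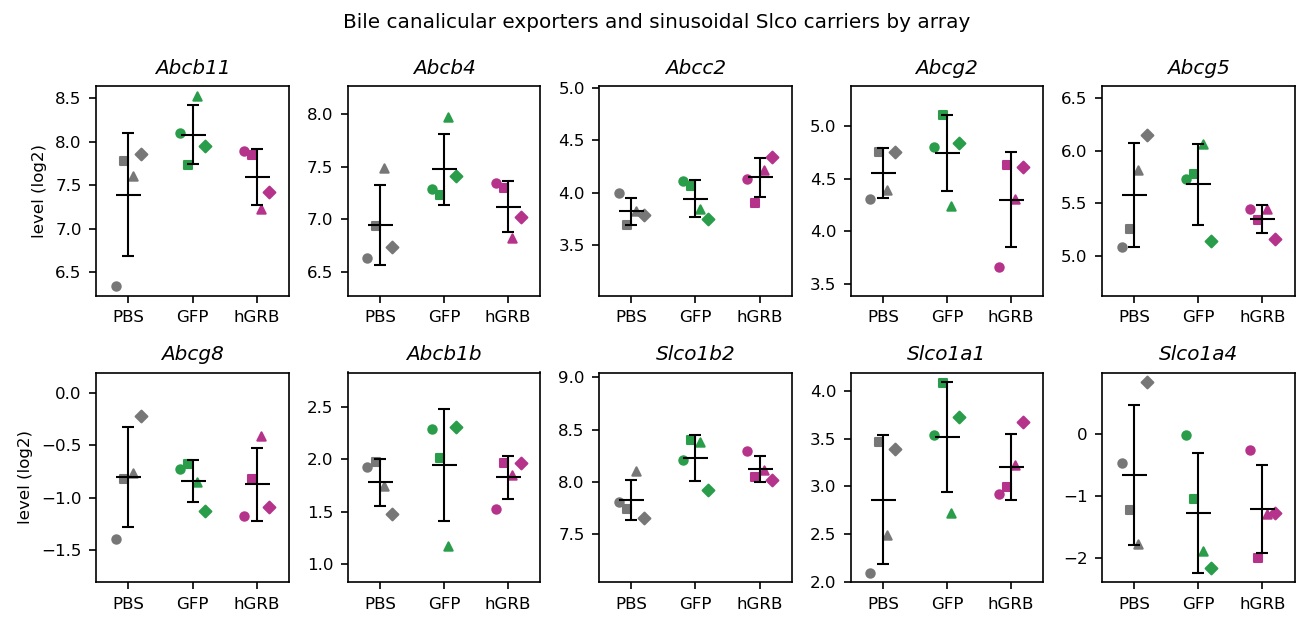
Levels (log2, relative to the 75th percentile of each array) of canalicular exporters and sinusoidal Slco carriers on each array, with group mean and SD (n = 4) in black; marker shapes stand for replicates 1 to 4 as circle, square, triangle and diamond, and each panel has its own axis. The groups overlap in every panel, and PBS replicate 1 lies low for Abcb11, at 6.34.

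Abcg5 and Abcg8 encode the paired subunits of the sterol exporter of the canalicular membrane and lie head to head, so that a single short stretch separates their starts. That stretch is shown because it serves both genes, and capitals mark CTTATC, the reverse complement of the GATA letters GATAAG, and AGAACA, the reverse complement of TGTTCT, the core hexamer of a glucocorticoid response element (RefSeq, GRCm38.p6, chr17:84683012-84683120, plus strand).
Abcg5 to Abcg8: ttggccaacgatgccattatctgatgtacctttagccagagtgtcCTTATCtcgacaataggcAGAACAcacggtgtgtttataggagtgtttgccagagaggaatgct
Abcg5 stood at 5.09, 5.25, 5.82 and 6.15 in PBS, 5.73, 5.78, 6.07 and 5.14 in AAV-GFP and 5.44, 5.34, 5.45 and 5.16 in AAV-hGRB. Abcg8 stood at -1.39, -0.82, -0.76 and -0.22 in PBS, -0.72, -0.68, -0.85 and -1.12 in AAV-GFP and -1.17, -0.82, -0.41 and -1.09 in AAV-hGRB. For both genes all groups overlapped, and PBS replicates 1 and 4 were near the low and high ends.

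Across the 12 arrays the levels of Abcg5 and Abcg8 went together, with a Pearson r of 0.68 (permutation p = 0.0154, 0.0463 after adjustment over 3 gene pairs) and a Spearman rho of 0.71 (permutation p = 0.0128, adjusted 0.0385). Without the 2 arrays farthest from the median of Abcg5, AAV-GFP replicate 3 and PBS replicate 4, r was 0.63. On deviations from group means it was 0.72, and without the 3 arrays of the slide that held AAV-GFP, AAV-hGRB and PBS replicates 3 it was 0.88. Slides held at most 3 arrays, so r within a slide was not computed. The relation was not kept under every choice: r was 0.28 with normexp correction (permutation p = 0.375), 0.38 with the mean of both Abcg8 probes (permutation p = 0.218) and 0.54 without PBS replicate 4 (permutation p = 0.0891). The log2 difference between both genes did not separate AAV-hGRB from AAV-GFP, with a shift of -0.30 (exact two-sided permutation p = 0.229).

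**Figure D3:**
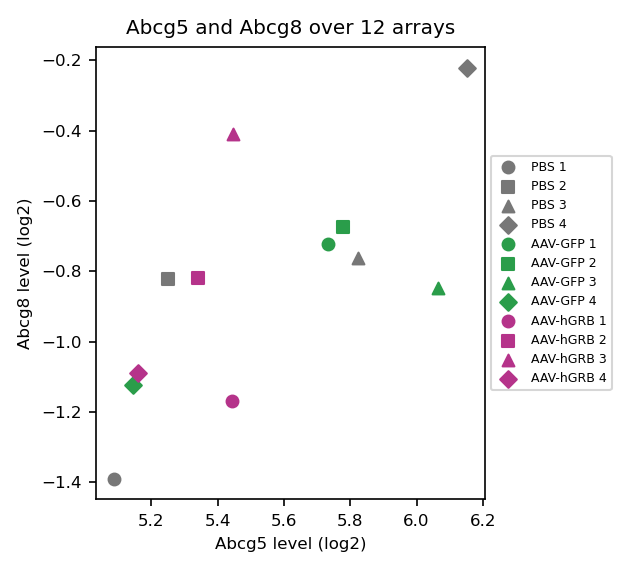
Level of Abcg8 against level of Abcg5 (both log2, relative to the 75th percentile of each array), one point per array, coloured by group with shapes for replicates. The points run from PBS replicate 1 at 5.09 and -1.39 to PBS replicate 4 at 6.15 and -0.22, and the groups are mixed along the way.

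The same comparison was made for a further 2 pairs, each from a single gene cluster. Slco1a1 and Slco1a4 had an r of 0.04 (rho 0.03, permutation p = 0.931 and 0.921). Abcb1a and Abcb4 had an r of -0.36 (rho -0.37, permutation p = 0.253 and 0.239), but Abcb1a was above background on 1 array only, so its levels on the other 11 are not measured above the background.

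Among carriers of the sinusoidal membrane, 5 hepatic Slco genes were tested. Slco1b2, the main mouse uptake carrier for unconjugated bile acids and many drugs, had levels of 7.81, 7.74, 8.10 and 7.66 in PBS, 8.21, 8.40, 8.38 and 7.93 in AAV-GFP and 8.29, 8.05, 8.12 and 8.02 in AAV-hGRB. In AAV-GFP 3 of 4 arrays lay above all PBS arrays, and AAV-hGRB lay between the ends of the AAV-GFP range. The difference between AAV-GFP and PBS was 0.40 ± 0.18, with an unadjusted p of 0.0455 and an adjusted p of 0.999 (limma). It was positive on each of the 3 slides that held both groups, at 0.47, 0.74 and 0.28, and was 0.26 with quantile scaling. Each slide value is 1 array against 1 array, and these arrays are part of the main difference. AAV-hGRB differed from AAV-GFP by -0.11 ± 0.18.

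Slco1a5, a related organic anion carrier, showed the family's largest difference between AAV-hGRB and PBS. It stood at -1.44, -2.31, -3.10 and -2.31 in PBS, -2.21, -3.05, -2.94 and -3.83 in AAV-GFP and -3.27, -3.10, -3.82 and -2.67 in AAV-hGRB. PBS replicate 3 lay within the AAV-hGRB range, and the other 3 PBS arrays lay above it. The difference was -0.93 ± 0.40 (adjusted p = 0.842, limma), and under normexp correction, which compresses dim signals, it was -0.16. Slco1a4, a carrier of bile acids and cardiac glycosides, ranged from -1.77 to 0.84 within PBS alone and was among the 5 members with the largest spread within groups. Slco1a1, known in mice for its higher level in males, had a difference of 0.66 ± 0.36 in AAV-GFP against PBS. Slco2b1, an uptake carrier of steroid sulphates, differed by -0.21, 0.15 and -0.06 in the order of the comparisons above, and the first was -0.01 with quantile scaling.

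Of the 15 Slco genes, 8 were not tested. They include Slco6b1, Slco6c1 and Slco6d1, which were well above background on 0 of 12 arrays.

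Among families with 5 or more tested genes, Slc22a gave the most one-sided split between the vectors. In AAV-hGRB against AAV-GFP 16 of 17 tested genes were lower, beside 61.9% of all gene names, with a median of -0.27. None passed the test and none had an unadjusted p under 0.05. The 9 organic anion carriers among them were lower in 9 of 9, with a median of -0.45. With normexp correction 13 of 17 Slc22a genes and 6 of 9 anion carriers were lower, with medians of -0.10 and -0.07. Leaving out 1 array in turn gave between 13 and 17 of 17, with medians from -0.41 to -0.17, and for the anion carriers 6 to 9 of 9. For these 9 the median was -0.26 without AAV-hGRB replicate 3, which gave the lowest count. Against PBS 13 of 17 were lower with AAV-hGRB (median -0.16), and AAV-GFP against PBS split into 9 higher and 8 lower.

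By the brightest tested probe of each gene, Slc22a26, an organic anion carrier of the mouse lineage, had the lowest unadjusted p of all members. Its probe lies at chr19:7601848-7601907 in mm7, the build of the array files, and probes were not assigned to exons or UTRs here. It stood at 1.24, -0.57, 1.28 and 0.71 in PBS, at -0.59, -0.10, -1.08 and -0.52 in AAV-GFP and at 0.11, -1.66, -1.71 and -0.92 in AAV-hGRB. In PBS 3 of 4 arrays lay above all 8 vector arrays, and PBS replicate 2 lay among them. AAV-hGRB was 3.27-fold below PBS (-1.71 ± 0.47, unadjusted p = 0.0034, adjusted p = 0.626, limma) and AAV-GFP 2.35-fold below it (-1.23 ± 0.47, adjusted p = 0.999), while AAV-hGRB differed from AAV-GFP by -0.48 ± 0.47. With normexp correction that last value was -0.18. On the slides that held both groups, with 1 array of each, AAV-hGRB minus PBS was -0.60 and -2.99. In the same way AAV-GFP minus PBS was -0.01, -0.81 and -2.36.

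Slc22a29 and Slc22a6 had the same order of group means. Slc22a29 stood at -1.70, -3.21, -1.66 and -2.90 in PBS, -3.98, -2.56, -3.05 and -3.38 in AAV-GFP and -3.15, -4.04, -4.37 and -3.81 in AAV-hGRB. PBS replicate 2 overlapped with AAV-hGRB replicate 1, and the difference between AAV-hGRB and PBS was -1.47 ± 0.42 (adjusted p = 0.655, limma). Slc22a6, or OAT1, the classical organic anion exchanger of kidney (probe at chr19:8306540-8306599, mm7), stood at -1.43, -1.67, -1.59 and -3.12 in PBS, -1.98, -2.97, -2.44 and -3.78 in AAV-GFP and -3.34, -3.19, -3.81 and -3.11 in AAV-hGRB. PBS replicate 4 was as low as the AAV-hGRB arrays, and the difference of -1.41 ± 0.43 had an adjusted p of 0.719. Both genes are dim, and under normexp correction the differences were -0.31 and -0.40. On the slides that held both groups, with 1 array of each, AAV-hGRB minus PBS was -0.25 and -2.71 for Slc22a29. For Slc22a6 it was -0.22 and -2.22 on the same slides. Of the 3 kidney markers, 0 were well above background on all arrays. The mean of the 2 that could be tested lay between -4.67 and -2.57 in PBS, -4.80 and -4.03 in AAV-GFP and -4.83 and -4.39 in AAV-hGRB, and its part in the values of Slc22a6 was not tested. Between AAV-hGRB and PBS, Slc12a1 differed by -1.55 (unadjusted p = 0.0092, adjusted p = 0.792, limma) and Umod by -0.10.

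Slc22a30 (probe at chr19:8016922-8016981, mm7) was the single member whose groups did not overlap in AAV-hGRB against AAV-GFP, beside 2.98% of all gene names, or 2.26% for those lower in AAV-hGRB. Its levels were 4.21, 5.31, 4.74 and 4.89 in PBS, 5.21, 5.44, 5.24 and 5.29 in AAV-GFP and 4.97, 4.99, 4.46 and 4.95 in AAV-hGRB. All AAV-hGRB arrays were below all AAV-GFP arrays, but the PBS arrays spanned both. The difference was -0.45 ± 0.24 (adjusted p = 0.998, limma), and a second probe gave -0.52. It was -0.26 with quantile scaling and -0.32 without AAV-hGRB replicate 3. In both comparisons with PBS 0 members had groups without overlap, beside 0.937% of gene names for AAV-GFP and 4.5% for AAV-hGRB (2.8% for those lower there). Slc22a7, or OAT2, a hepatic carrier of organic anions, differed by -0.56 ± 0.38 between AAV-hGRB and AAV-GFP and by 0.72 ± 0.38 between AAV-GFP and PBS.

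**Figure D4:**
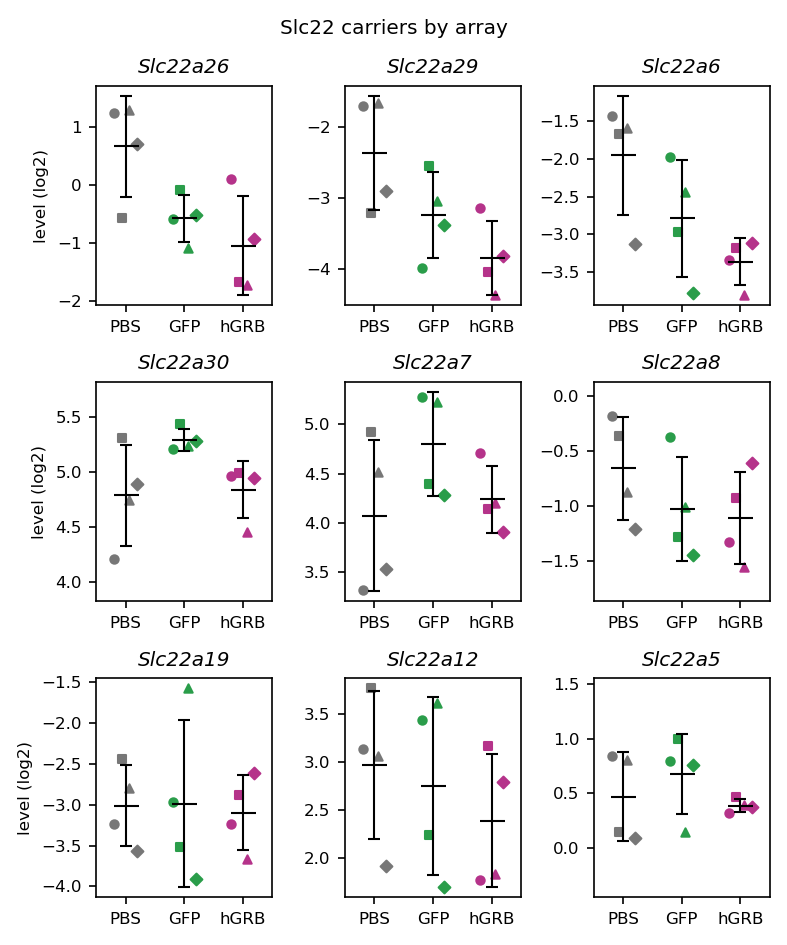
Levels (log2, relative to the 75th percentile of each array) of 9 Slc22 carriers on each array, with group mean and SD (n = 4) in black, replicates 1 to 4 as circle, square, triangle and diamond, and an axis of its own per panel. For Slc22a26, Slc22a29 and Slc22a6 the PBS mean is highest and the AAV-hGRB mean lowest, yet at least 1 PBS array lies among the vector arrays; for Slc22a30 the AAV-hGRB arrays lie below the AAV-GFP arrays.

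Slc22a29 and Slc22a30 are neighbours on chromosome 19, in a row with Slc22a8 and Slc22a6. Their upstream sequences are shown because the stretches are partial copies of each other. A global alignment of the 250 bases before each start, with gaps, paired 221 bases, of which 182 were identical (82.4%), and capitals mark the 4 runs of at least 12 identical bases (RefSeq, GRCm38.p6, minus strand, chr19:8218901-8219150 and chr19:8405106-8405355).
Slc22a29: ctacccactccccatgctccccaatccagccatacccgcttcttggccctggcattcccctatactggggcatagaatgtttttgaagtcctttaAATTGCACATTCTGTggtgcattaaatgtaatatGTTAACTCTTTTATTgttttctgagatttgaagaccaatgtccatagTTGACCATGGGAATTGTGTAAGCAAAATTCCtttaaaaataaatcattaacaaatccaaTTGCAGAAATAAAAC
Slc22a30: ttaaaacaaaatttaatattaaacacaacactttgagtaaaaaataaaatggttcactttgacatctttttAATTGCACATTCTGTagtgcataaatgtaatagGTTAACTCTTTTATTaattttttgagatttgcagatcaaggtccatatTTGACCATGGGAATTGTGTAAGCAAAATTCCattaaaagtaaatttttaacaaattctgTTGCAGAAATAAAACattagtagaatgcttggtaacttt
In AAV-GFP against PBS the difference was -0.87 ± 0.42 for Slc22a29 and 0.51 ± 0.24 for Slc22a30. On the 3 slides that held both groups these were -0.77, 0.34 and -1.39 for Slc22a29 and -0.10, 0.55 and 0.50 for Slc22a30, so the signs were opposite on 1 slide only. Each slide value is 1 array against 1 array. With normexp correction the difference of Slc22a29 was -0.30, and with slide as a fixed block, or without PBS replicate 1, that of Slc22a30 was 0.31. Neither passed the test, and the difference between the genes was not tested.

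Of the 86 genes, 69 had a 250-base upstream window in RefSeq, and each was searched on both strands. A palindromic glucocorticoid response element, written as GNACA and TGTNC with 3 bases between them, was found in 1 of 69 (1.45%), that of Abcb5, which was not tested, beside 0.44% of 27025 genes. The hexamer TGTTCT, which such an element can contain, was found in 15 of 69 (21.7%) beside 18.2%. GATAAG was in 7 of 69 (10.1%) beside 7.6%, TTCNNNGAA, a STAT site, in 7 (10.1%) beside 8.13%, and GTTAAT, an arm of an HNF1 site, in 4 (5.8%) beside 7.49%. The hexamer TGTTCT lay in the windows of Abcb11, Abcb4, Abca1, Abcc4, Slc22a26 and Slco2b1 among others. The windows of Abcg5 and Abcg8 share the stretch shown above, so its GATAAG and TGTTCT matches are counted for both genes. These matches are descriptions of letters in a window.

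Organic cation and carnitine carriers of the Slc22 family were 5 tested genes. For Slc22a5, the carnitine carrier, the difference was -0.29 ± 0.24, or -0.46 without AAV-GFP replicate 3, and its probe and that of Slc22a21 share 54 of 55 aligned bases, so their signals are uncertain as separate genes. Slc22a12, a urate exchanger of the anion group, ranged from 1.71 to 3.77 over the arrays with overlap of all groups. Slc22a18, a carrier of unsettled substrate, differed by -0.27 ± 0.21 on its brighter probe, or -0.06 with quantile scaling, and its second probe gave 0.31.

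Exporters of the basolateral membrane gave 5 tested genes, of which none passed. Abcc4, a pump for bile acid conjugates and cyclic nucleotides, stood at 0.35, -1.23, 0.15 and 0.16 in PBS, -1.42, -0.13, -1.47 and -0.74 in AAV-GFP and -0.18, -1.03, -0.08 and -0.22 in AAV-hGRB. Its AAV-GFP mean was the lowest, 0.80 below PBS (-0.80 ± 0.40, adjusted p = 0.999, limma) and 0.56 ± 0.40 below AAV-hGRB, with overlap in both cases. For Abcc3, a carrier of glucuronides, the means were 5.60 ± 0.37 in PBS, 5.63 ± 0.24 in AAV-GFP and 5.62 ± 0.12 in AAV-hGRB (SD, n = 4), and for Abcc6, whose loss causes ectopic mineralisation, 0.63 ± 0.07, 0.64 ± 0.29 and 0.67 ± 0.22. For Abcc3 and Abcc6 the standard errors of the differences were 0.21 and 0.19.

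Abcc9, which encodes a regulatory subunit of potassium channels and is known from vascular and mesenchymal cells, had a lower mean in AAV-GFP than in PBS. It stood at -1.11, -1.68, -1.18 and -0.93 in PBS, -1.98, -1.67, -1.87 and -2.17 in AAV-GFP and -1.31, -2.23, -1.36 and -1.12 in AAV-hGRB. In AAV-GFP 3 of 4 arrays lay below all PBS arrays, and replicate 2 overlapped with PBS replicate 2 by a narrow margin. The difference was -0.70 ± 0.26 (unadjusted p = 0.0196, adjusted p = 0.999, limma), and the other 2 tested probes gave -0.45 and -0.49. With normexp correction it was -0.46. Stellate cell markers were lower in 3 of 4 in that comparison, with a median of -0.02, and endothelial markers in 4 of 5, with a median of -0.07. In AAV-hGRB against PBS the brightest probe of Abcc9 gave -0.29. Its dimmer tested probes gave -0.20 and -0.56 there (unadjusted p = 0.43 and 0.035, limma). Abcc8, an alternative regulatory subunit of such channels known from beta cells, was well above background on 8 of 12 arrays and differed by -0.98 ± 0.63 between AAV-hGRB and PBS, or -0.12 with normexp correction.

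Lipid and sterol carriers of the Abca and Abcg families were 10 tested genes that split into 5 higher and 5 lower in AAV-hGRB against AAV-GFP. Abca9, a member of a cluster of 5 neighbouring Abca genes on chromosome 11, stood at -3.45, -3.52, -3.01 and -3.35 in PBS, -3.15, -3.60, -3.65 and -3.26 in AAV-GFP and -2.79, -2.86, -3.35 and -2.81 in AAV-hGRB. In AAV-hGRB 3 of 4 arrays lay above all AAV-GFP arrays, and replicate 3 lay among them. The difference was 0.46 ± 0.21 (unadjusted p = 0.046, adjusted p = 0.998, limma). Its neighbours Abca5, Abca6, Abca8a and Abca8b differed by -0.04, -0.07, 0.00 and 0.06 in that comparison on their brightest tested probes. Dimmer tested probes gave 0.42 for Abca8b, -0.37 for Abca5 and -0.004 for Abca6, so the neighbours are not shown to be unchanged. Abca1, which loads cholesterol onto apolipoprotein A-I, differed by 0.02 ± 0.25 between AAV-hGRB and AAV-GFP. Abcg1, which passes cholesterol to mature HDL, differed by 0.32 ± 0.25. Without AAV-hGRB replicate 3 that difference was 0.20. Abca7, a phospholipid carrier, differed by -0.23 ± 0.28, or 0.03 without AAV-GFP replicate 3. Abca5, a lysosomal member, differed by -0.69 ± 0.40 between AAV-hGRB and PBS, or -0.16 with normexp correction.

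Peroxisomal importers were 3 tested genes. Abcd3, or PMP70, which brings branched-chain and bile acid precursors into peroxisomes, stood at 7.10, 7.29, 6.85 and 7.30 in PBS, 7.36, 7.53, 6.77 and 7.29 in AAV-GFP and 6.59, 6.89, 6.94 and 6.87 in AAV-hGRB. AAV-GFP replicate 3 was the only AAV-GFP array within the AAV-hGRB range. The difference between AAV-hGRB and AAV-GFP was -0.41 ± 0.20 (adjusted p = 0.998, limma), and it was -0.22 when the 3 probes of the gene were averaged and -0.19 with quantile scaling. Abcd2, which imports very long-chain fatty acids, differed by -0.87 ± 0.40 between AAV-hGRB and PBS (adjusted p = 0.848), or -0.24 with normexp correction. A dimmer tested probe of Abcd2 gave -0.76 there and -1.25 in AAV-GFP against PBS (unadjusted p = 0.046, limma), where the brighter gave -0.53. Between the vectors the dimmer probe gave 0.49 and the brighter -0.35, the opposite sign.

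Of 6 mitochondrial and lysosomal members, 5 had a lower mean with AAV-hGRB than with AAV-GFP, beside 61.9% of all gene names. Abcb6, a porphyrin carrier, stood at 3.93, 3.88, 4.17 and 4.13 in PBS, 4.06, 4.66, 4.09 and 4.30 in AAV-GFP and 3.89, 4.07, 3.76 and 3.78 in AAV-hGRB. AAV-hGRB replicate 2 lay just within the AAV-GFP range, and the difference was -0.40 ± 0.19 (unadjusted p = 0.0519, adjusted p = 0.998, limma), or -0.24 with quantile scaling. Abcd4, which acts in lysosomal release of cobalamin, differed by -0.24 ± 0.29, or -0.03 without AAV-GFP replicate 3.

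Abce1 and the Abcf genes carry ABC domains but act in ribosome recycling and translation. Abcf1 differed by -0.33 ± 0.17 between AAV-hGRB and AAV-GFP on its brighter probe, but its second probe gave 0.35, and the mean of both was 0.01. Abcf3 differed by -0.23 ± 0.34, or 0.07 without AAV-GFP replicate 3. Of the members outside these groups, Abca14 had the largest spread within groups, an SD of 1.83, with 0.02 on PBS replicate 1 and -2.76 or less elsewhere. It was well above background on 5 of 12 arrays. Abcg3, a rodent member of the Abcg family, was well above background on 6 arrays and differed by 0.42 ± 0.25 between AAV-hGRB and AAV-GFP, or 0.22 with normexp correction.

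Different probes of a gene did not always share a sign. Of 27 genes with several tested probes, all probes had the same sign in 15 for AAV-hGRB against AAV-GFP, in 19 for AAV-GFP against PBS and in 23 for AAV-hGRB against PBS. Within slides, the median difference of the 63 genes between AAV-hGRB and AAV-GFP was -0.06 on 1 slide and -0.32 on the other that held both groups, with 36 genes lower on each. Between AAV-hGRB and PBS it was -0.10 and -0.31 on these slides, which held 1 array of each group.

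Other genes of hepatic transport were read from a list of 15 further carriers and scaffolds and a list of 12 transcription factors. Of the first, 13 were tested, and in each comparison 0 passed the adjusted test. In AAV-hGRB against AAV-GFP 7 were higher and 6 lower. Tap1, an ABC protein that loads peptides for antigen presentation, was at -0.98, -1.05, -2.59 and -1.01 in AAV-GFP and -1.03, -0.07, 0.57 and -0.34 in AAV-hGRB, a difference of 1.19 ± 0.42 (adjusted p = 0.998, limma). AAV-GFP replicate 3 was its lowest array, and the groups overlapped. Tap2, its partner, differed by 0.51. Slc51b, a subunit of the basolateral bile acid exporter, stood at -1.10, -1.81, 0.16 and -1.27 in AAV-GFP and -1.05, -1.99, -2.85 and -2.12 in AAV-hGRB. AAV-GFP replicate 3 was its highest array, and the difference was -0.997 ± 0.48 (adjusted p = 0.998, limma) with overlap, or -0.61 without that array. All 12 transcription factors were well above background on 12 arrays. Between the vectors 8 had a lower mean with AAV-hGRB, beside 61.9% of all gene names, and 4 a higher one, with 0 past the test. Nr1h4, the bile acid receptor FXR, differed by -0.45 ± 0.26, or -0.26 without AAV-GFP replicate 3.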

How the data were processed

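Liver RNA, 500 ng per sample, was labelled with Cy3 and hybridised to one-colour Agilent arrays, per the labels. The deposited scanner files hold signal intensity, which Agilent's Feature Extraction software, version 9.5.3.1 per the file headers, had background-subtracted and detrended (the submitters' processing notes name 9.5). The series' deposited table holds the same intensity, equal in 540216 of 540216 values within a relative 1e-06, so it is linear and uncentred. Probe positions are on mm7 and symbols were updated through RefSeq accessions (22944 probes by systematic accession, 124 by another, 18106 kept the design's name).

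Log2 processed intensity minus the array's 75th percentile entered limma 3.58.1 (R 4.3.3) with 12 arrays in 3 groups, which left 9 residual degrees of freedom; all tests were two-sided. The threshold was an adjusted p of 0.05, after Benjamini-Hochberg adjustment over the 26591 probes well above background on at least 4 arrays. The brightest tested probe stands for a gene. The fit was tested on simulated data. The number of arrays limits the precision. Pair correlations used 100000 permutations in scipy 1.17.1.

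The text names members past the threshold, the 8 of lowest p per comparison, the 2 brightest per family, the 5 of largest spread and a list of hepatic carriers, and the 4 other pathway genes of lowest p between the vectors. The neighbours of Abca9, Abcc1 and the dimmer probes given with a p were chosen after their values were seen. Results for 2 genes that the rule selects are not reported here. The members, lists and rules were chosen with earlier results of these data known.

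Alternatives were normexp correction (offset 50), quantile and median scaling, the mean of a gene's probes, other filters, the deposited table, slide or replicate number as a block, and leaving out each array.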

Additional observations from a re-analysis of the deposited data

Results flagged for a closer look

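Within groups of 4 arrays, the gap between an extreme array and its neighbour was checked against the range of the group for all 63 tested genes. In 17 of 189 groups (9.0%) the gap was large enough to mark the array, where chance marks about 1 in 20, and 5 of the marks fell on AAV-GFP replicate 3, the dimmest array. Among the genes named in the text, AAV-GFP replicate 3 was high for Abca7, at 2.99, and for Slco2b1, at 5.89, and low for Abca8a, at 0.61, and for Abce1, at 1.81. AAV-GFP replicate 1 was low for Abcf1, at 3.54. In PBS, replicate 1 was low for Abcb11, at 6.34, replicate 2 was low for Abcc4, at -1.23, and replicate 4 was low for Slc22a6, at -3.12. PBS replicate 3 was high for Abcf1, at 3.83. In AAV-hGRB, replicate 2 was low for Abcc4, at -1.03, and replicate 3 was low for Abca9, at -3.36, and for Slc22a30, at 4.46. Without AAV-hGRB replicate 3 the difference of Abca9 from AAV-GFP was 0.59.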

How the results depend on the processing

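No alternative brought a transporter gene past the adjusted threshold, and the lowest adjusted p among 522 values of 24 gene results was 0.309. Of those values 1 changed sign: Abcf1 in AAV-hGRB against AAV-GFP was 0.0121 as the mean of its probes. Genes with an unadjusted p under 0.05 numbered 3 with the mean of a gene's probes, 2 with slide as a random block, and 0 with normexp correction, quantile scaling, median scaling or the replicate block in AAV-hGRB against AAV-GFP. In AAV-GFP against PBS they numbered 1 with normexp correction, 5 among genes well above background on 12 arrays and 0 with slide as a fixed block, and in AAV-hGRB against PBS 1 with normexp correction. Genes whose groups do not overlap numbered 2 with the mean of probes, 0 with normexp correction and 2 with no filter in AAV-hGRB against AAV-GFP. They numbered 2 with the mean of probes in AAV-GFP against PBS, and 1 with the mean of probes, 3 with quantile scaling and 1 with median scaling in AAV-hGRB against PBS. The Pearson r of Abcb1a and Abcb4 was -0.79 with quantile scaling, and that of Abcg5 and Abcg8 was 0.28 with normexp correction and 0.38 with the mean of probes. The cause of these shifts was not tested. The counts of genes under these alternatives are not set beside shares of all gene names, so they are no result about the members.

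Leaving out each array in turn gave 0 to 3, 2 to 8 and 3 to 6 genes with an unadjusted p under 0.05, and 1 to 7, 0 to 4 and 0 to 5 without overlap, for the contrast of both vectors, for that of AAV-GFP with PBS and for that of AAV-hGRB with PBS, in that order. The members' median ranged from -0.22 to -0.11 in the first, and the r of Abcg5 and Abcg8 from 0.54 to 0.79. The counts of genes are not set beside shares of all gene names here. A group with an array left out is smaller, and smaller groups separate more readily. Replicate numbers did not pair the arrays: same-numbered arrays had correlations of deviations from -0.43 to 0.59, and 4 of 12 arrays correlated best with their own number. The replicate block left 0 members past the adjusted threshold. Abcg3, Abca14, Abcc8 and other genes near background on several arrays carry the least reliable values.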
